A study of Mus musculus with 12 samples.

Results

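The 10 genes described here make, phosphorylate or consume NAD in RAW264.7 cells, a mouse macrophage line. They were chosen by name from the table of counts per Ensembl gene, and all 10 were found among its 12483 genes. They are Nmnat1, Nmnat3 and Nadsyn1 of NAD synthesis, the NAD kinases Nadk and Nadk2, and the NAD consumers Bst1, Parp1, Parp2, Sirt1 and Sirt2. Under LPS and interferon gamma, Bst1, Nadk and Sirt2 rose in KO and in WT clones, while Nadk2, Nmnat3, Nadsyn1, Parp1 and Parp2 fell in both. Sirt1 passed as lower in KO clones and Nmnat1 as higher in WT clones, calls that were lost when single clones were left out. The Nadsyn1 calls in both genotypes were lost in the same way, as was the Parp2 call in WT clones. The Sirt2 call in WT clones was lost when libraries were scaled by their totals alone. No member passed the test between KO and WT clones.

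RNA was sequenced from 12 libraries in 4 groups of 3. The KO groups were clones 1A, 1B and 2 with a CRISPR deletion of a region called NRE1, either given LPS at 10 ng/mL with interferon gamma at 50 ng/mL for 6 h or kept in medium. The WT groups were clones 1, 2 and 3, handled in the same 2 ways. LPS, a bacterial outer membrane lipid, acts through Tlr4, and interferon gamma comes mainly from T and NK cells; both activate macrophages. All lines grew from single cells picked after selection for GFP and puromycin resistance, so a genotype here is a few clones of 1 line. The labels do not expand NRE1 or relate clones 1A and 1B, and no gene of that name is in the table, so the deletion was not checked against a transcript. P-values measure the spread between these clones and not between animals.

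Total counts ran between 10624591 and 14388590 per library, and each member was counted between 27 times (Nmnat3) and 7578 times (Parp1) in a library. The 10 macrophage markers were all in the table, with a summed level of 6289 to 12400 CPM (counts scaled to library size) in KO clones and 9839 to 19800 CPM in WT clones under LPS/IFN-γ, and 4730 to 14020 CPM in KO clones and 8465 to 19140 CPM in WT clones in medium. Lyz2 was the largest part of this sum, with 2640 to 7383 CPM in KO and 6401 to 14960 CPM in WT clones under LPS/IFN-γ. In medium Lyz2 had 1790 to 10560 CPM in KO and 4989 to 14800 CPM in WT clones. Of 16 markers of T or NK cells, B cells, neutrophils, fibroblasts and epithelium, 1 was in the table, the neutrophil gene S100a8, at no more than 2.84 CPM. By edgeR, KO clones had lower Itgam in medium and lower Mrc1 under LPS/IFN-γ, both macrophage markers, with log2 fold changes of -1.75 ± 0.26 and -3.01 ± 0.52 (SE; edgeR's quasi-likelihood test, Benjamini-Hochberg adjusted p = 0.00983 and 0.0118). Both calls were lost without KO clone 1A or 1B and with the pair summed (Itgam 0.107, 0.131 and 0.118; Mrc1 0.119, 0.084 and 0.113). Itgam shares 68.7% of its exon length with Gm49368 and is uncertain. Mrc1 was counted only 6, 10 and 9 times in stimulated KO clones 1A, 1B and 2. DESeq2 called 3 of the 10 macrophage markers lower in KO clones in medium and 5 under LPS/IFN-γ. The part of these marker differences in the values below was not tested, and in bulk RNA fewer cells of a kind cannot be told apart from less RNA per cell.

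NAD carries electrons in metabolism and is also split as a substrate by sirtuins, ADP-ribosyltransferases and NAD glycohydrolases, so cells must keep making it. Most mammalian cells rebuild it from nicotinamide through Nampt and then an Nmnat enzyme, while Nadsyn1 closes the routes from nicotinic acid and tryptophan. NAD kinases convert NAD to NADP, whose reduced form supplies the phagocyte oxidase, nitric oxide synthase and the glutathione system of macrophages. Nampt, the rate-limiting salvage enzyme, is given as context and without a test, since it was picked for its values. It had 356, 347 and 316 CPM in KO clones 1A, 1B and 2 under LPS/IFN-γ, against 178, 194 and 179 CPM in medium. WT clones 1, 2 and 3 had 869, 797 and 1025 CPM under LPS/IFN-γ, against 137, 119 and 228 CPM in medium. Stimulated Nampt was thus 1.77 to 2.00 times its medium level in KO clones and 4.5 to 6.69 times in WT clones.

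In KO clones 9 of the 10 members passed the test of LPS/IFN-γ against medium, 3 higher and 6 lower, where 54.3% of the 12231 genes tested did (26.7% higher and 27.6% lower). The exception was Nmnat1, and the 3 stimulated libraries did not overlap the 3 medium libraries for any of the 10 members, as for 70% of all genes. In WT clones 9 members also passed, 4 higher and 5 lower, where 47.4% of all genes did (23.8% higher and 23.6% lower); the exception was Sirt1, the member whose groups overlapped (50.5% of all genes had none). Scaled by library totals alone, 8 members passed in WT clones, 2 higher and 6 lower, and in KO clones 3 were again higher and 6 lower. That scaling lowered the median of all genes, and the share of all genes that passed under it is not given here. The median log2 fold change of the members was -0.57 in KO clones and -0.38 in WT clones, against -0.01 over all genes in each.

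**Figure D1:**
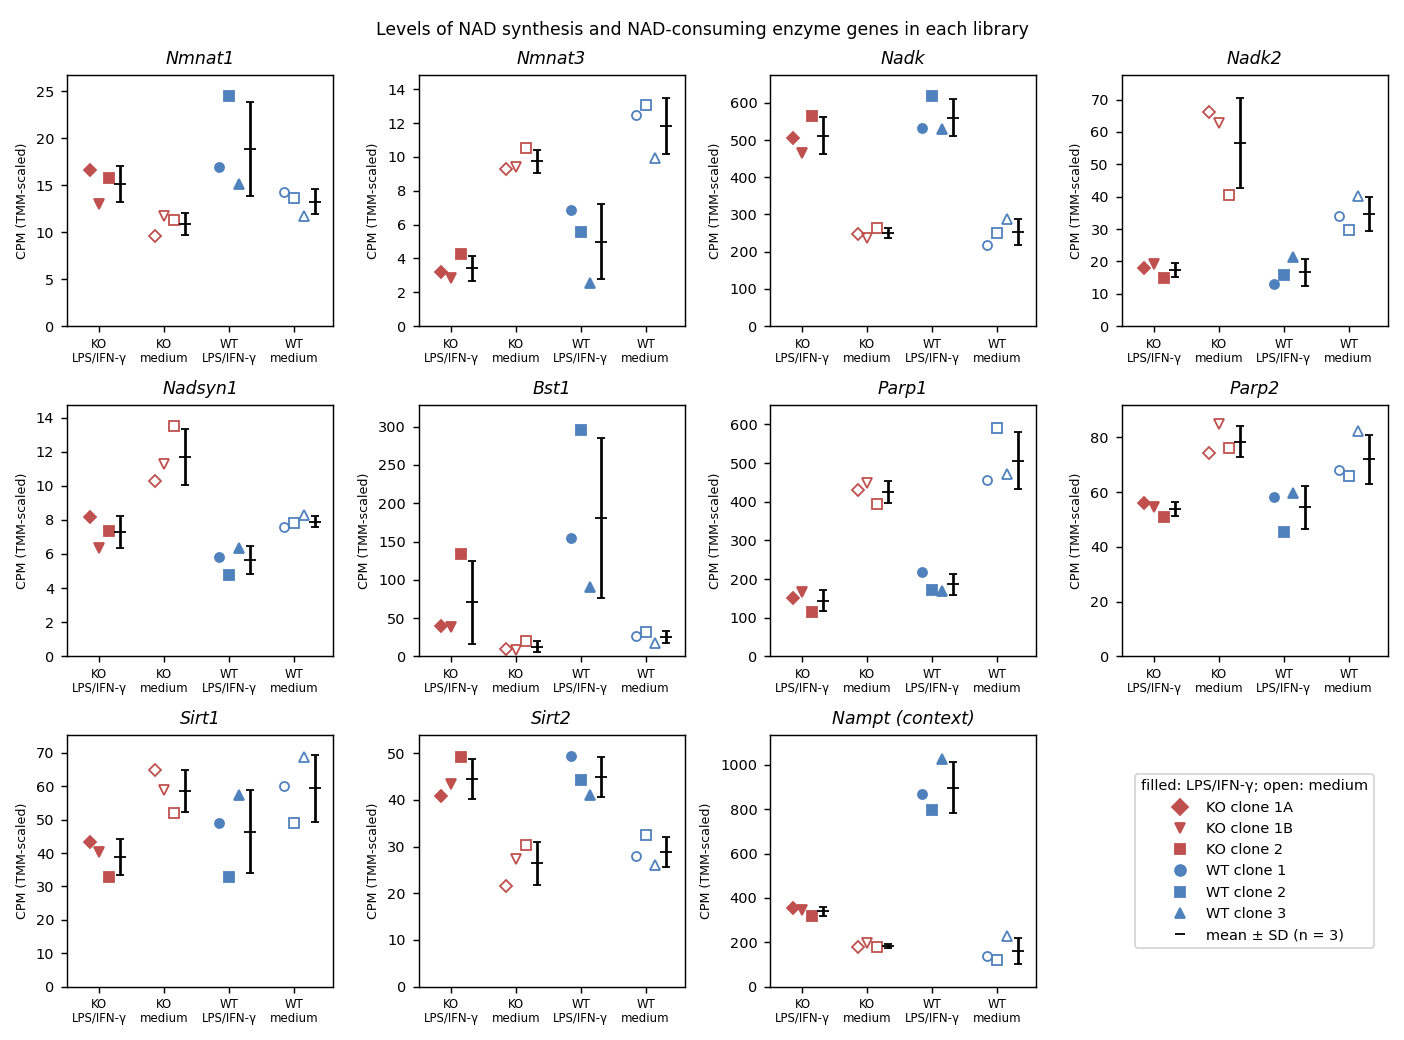
CPM of the 10 members and Nampt in each library (points), with the mean and SD of each group of 3 clones, for KO clones under LPS/IFN-γ and in medium and WT clones under LPS/IFN-γ and in medium. Nadk, Bst1 and Sirt2 are higher and Nadk2, Nmnat3, Parp1 and Parp2 lower under LPS/IFN-γ in both genotypes, and stimulated Nampt is lower in KO (340 ± 20.8 CPM) than in WT clones (897 ± 117 CPM).

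The pair of Nmnat enzymes join nicotinamide mononucleotide to ATP to form NAD; Nmnat3 fell, while the higher Nmnat1 values passed in WT clones and not in KO clones. Nmnat1, the nuclear enzyme (ENSMUSG00000028992, chr4:149467572-149485202, minus strand, mm10), had 16.7, 13.0 and 15.8 CPM in KO clones 1A, 1B and 2 under LPS/IFN-γ, against 9.60, 11.8 and 11.4 CPM in medium. In WT clones 1, 2 and 3 it had 17.0, 24.5 and 15.1 CPM under LPS/IFN-γ, against 14.3, 13.7 and 11.8 CPM in medium. On this scale each clone was higher when stimulated, by 1.11 to 1.74 times in KO and 1.18 to 1.79 times in WT clones. The log2 fold change was 0.47 ± 0.19 in KO clones (SE; edgeR adjusted p = 0.0561) and 0.51 ± 0.19 in WT clones (adjusted p = 0.0462). With the clone as a block the KO response passed at an adjusted p of 0.0317, whereas the WT call was lost when any 1 clone was left out (0.0603 to 0.256) and under library totals alone. Scaled that way the log2 fold change was 0.09 in KO (adjusted p = 0.688) and 0.15 in WT clones (adjusted p = 0.52).

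Nmnat3, the mitochondrial family member (ENSMUSG00000032456, chr9:98287435-98420438, plus strand), had 3.17, 2.84 and 4.27 CPM in KO clones 1A, 1B and 2 under LPS/IFN-γ, against 9.30, 9.40 and 10.5 CPM in medium. WT clones 1, 2 and 3 had 6.84, 5.58 and 2.56 CPM under LPS/IFN-γ, against 12.5, 13.1 and 9.95 CPM in medium. All stimulated libraries lay below all medium libraries in both genotypes, and WT clone 3 was the lowest. Nmnat3 fell by 1.51 ± 0.31 on the log2 scale in KO clones (SE; edgeR adjusted p = 0.00186) and by 1.24 ± 0.30 in WT clones (adjusted p = 0.00607). Of the summed Nmnat1 and Nmnat3 level in CPM per kb of exon, Nmnat3 made up 10.4, 11.7 and 14.1% in KO clones 1A, 1B and 2 under LPS/IFN-γ, against 37.0, 32.7 and 36.0% in medium. In WT clones 1, 2 and 3 it made up 19.7, 12.1 and 9.34% under LPS/IFN-γ, against 34.5, 36.7 and 33.9% in medium. The share was lower in every stimulated library than in every medium library.

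Nadsyn1, the glutamine-dependent NAD synthetase (ENSMUSG00000031090, chr7:143795584-143822849, minus strand), was scarce. It had 8.19, 6.36 and 7.33 CPM in KO clones 1A, 1B and 2 under LPS/IFN-γ, against 10.3, 11.3 and 13.5 CPM in medium. Levels in WT clones 1, 2 and 3 were 5.84, 4.77 and 6.36 CPM under LPS/IFN-γ, against 7.61, 7.83 and 8.27 CPM in medium. Stimulated libraries were below medium libraries within each genotype, and KO medium libraries were above WT medium libraries. Nadsyn1 fell by 0.68 ± 0.17 on the log2 scale in KO clones (SE; edgeR adjusted p = 0.00621) and by 0.48 ± 0.17 in WT clones (adjusted p = 0.0392). The KO call was lost without KO clone 1B (0.0579) or KO clone 2 (0.0612), and the WT call without any 1 clone and with KO 1A and 1B summed (0.0519 to 0.14).

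The 2 NAD kinases also moved in opposite directions. Nadk, the cytosolic kinase (ENSMUSG00000029063, chr4:155562378-155591001, plus strand), had 506, 465 and 565 CPM in KO clones 1A, 1B and 2 under LPS/IFN-γ, against 249, 237 and 263 CPM in medium. In WT clones 1, 2 and 3 it had 532, 618 and 531 CPM under LPS/IFN-γ, against 218, 251 and 288 CPM in medium. It had the smallest SE of the members that rose, with 1.97 to 2.15 times the medium level in KO clones and 1.84 to 2.46 times in WT clones. The log2 fold change was 1.04 ± 0.13 in KO clones (SE; edgeR adjusted p = 5.68e-05) and 1.15 ± 0.13 in WT clones (adjusted p = 4.13e-05).

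Nadk2, the mitochondrial kinase (ENSMUSG00000022253, chr15:9071260-9110891, plus strand), had 18.1, 19.2 and 14.8 CPM in KO clones 1A, 1B and 2 under LPS/IFN-γ, against 66.1, 62.9 and 40.6 CPM in medium. WT clones 1, 2 and 3 had 13.1, 15.7 and 21.3 CPM under LPS/IFN-γ, against 33.9, 29.8 and 40.3 CPM in medium. KO clones 1A and 1B were the high libraries in medium, KO clone 2 lay close to WT clone 3, and the stimulated KO and WT libraries overlapped. Nadk2 fell by 1.70 ± 0.23 on the log2 scale in KO clones (SE; edgeR adjusted p = 0.000112) and by 1.05 ± 0.22 in WT clones (adjusted p = 0.00288). Its difference of responses, KO minus WT, was -0.65 ± 0.32 with a 95% interval of -1.34 to 0.04 (unadjusted p = 0.064, adjusted p = 1), the smallest p of the 10 members.

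**Figure D2:**
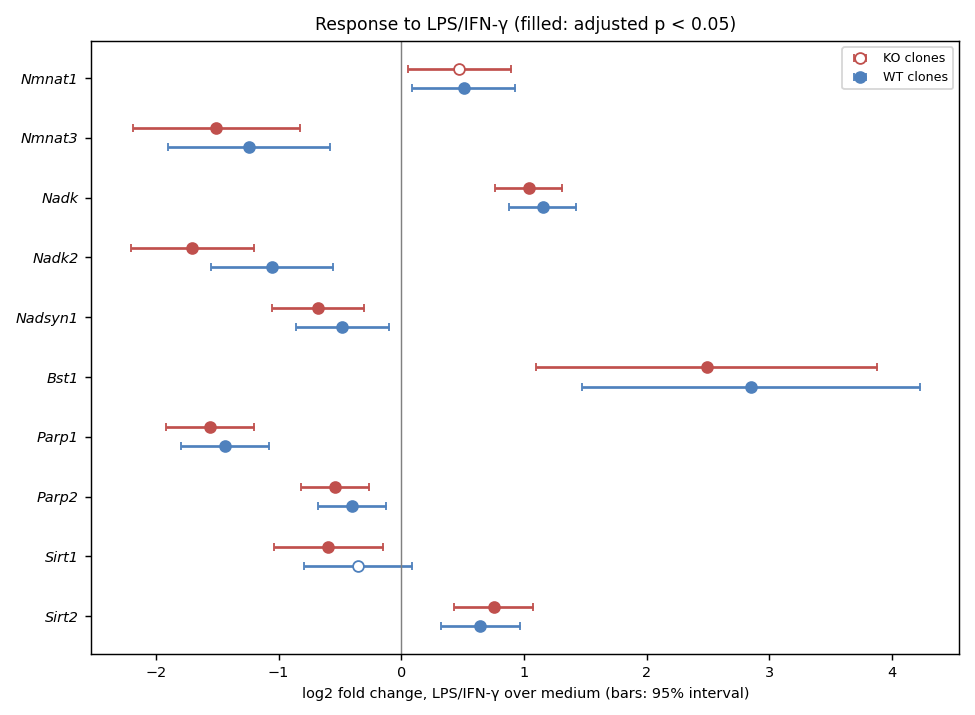
Log2 fold change of LPS/IFN-γ over medium for each member, KO clones above WT clones, with 95% intervals; filled points passed the test at an adjusted p below 0.05. Bst1 has the largest positive values (2.49 in KO and 2.85 in WT clones), and Nadk2, Parp1 and Nmnat3 are lowest in both genotypes.

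Bst1 (CD157), a surface enzyme of the ADP-ribosyl cyclase family that cleaves NAD outside the cell (ENSMUSG00000029082, chr5:43818885-43843986, plus strand), rose most. It had 40.2, 37.7 and 133 CPM in KO clones 1A, 1B and 2 under LPS/IFN-γ, against 9.07, 8.11 and 20.6 CPM in medium. Levels in WT clones 1, 2 and 3 were 155, 296 and 90.7 CPM under LPS/IFN-γ, against 26.4, 31.7 and 17.0 CPM in medium. KO clones 1A and 1B were the lowest in each condition, and KO clone 2 lay within the WT range in both. Each clone rose all the same, by 4.43 to 6.48 times in KO and 5.34 to 9.32 times in WT clones. The log2 fold change was 2.49 ± 0.62 in KO clones (SE; edgeR adjusted p = 0.00679) and 2.85 ± 0.62 in WT clones (adjusted p = 0.00376). Adgre1, the macrophage surface marker F4/80, was likewise lower in KO clones 1A and 1B (51.6 and 50.3 CPM stimulated, 12.5 and 12.9 CPM in medium) than in KO clone 2 (75.5 and 25.4 CPM), and higher in WT clones, at 143 to 506 CPM stimulated and 55.2 to 213 CPM in medium. The markers did not all follow this order. Stimulated Fcgr1 was higher in KO clones 1A and 1B (45.3 and 52.4 CPM) than in KO clone 2 (30.1 CPM). Stimulated Itgam was too, at 118 and 98.1 CPM against 62.4 CPM. Among stimulated WT clones Adgre1 was highest in clone 1 (506 CPM) and Bst1 in clone 2 (296 CPM). The part of these markers in the Bst1 values was not tested.

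Parp1, the main nuclear poly(ADP-ribose) polymerase activated by DNA breaks (ENSMUSG00000026496, chr1:180568924-180601254, plus strand), had 151, 167 and 114.5 CPM in KO clones 1A, 1B and 2 under LPS/IFN-γ, against 431, 449 and 394 CPM in medium. WT clones 1, 2 and 3 had 218, 171.5 and 170.2 CPM under LPS/IFN-γ, against 456, 590.4 and 471 CPM in medium. The KO libraries lay below the WT libraries in each condition, by much less than the stimulated libraries lay below the medium ones. Parp1 fell by 1.56 ± 0.16 on the log2 scale in KO clones (SE; edgeR adjusted p = 2.35e-05) and by 1.44 ± 0.16 in WT clones (adjusted p = 5.33e-05). Parp2, its partner in break repair (ENSMUSG00000036023, chr14:50807841-50821301, plus strand), had 56.1, 54.5 and 51.1 CPM in KO clones 1A, 1B and 2 under LPS/IFN-γ, against 74.3, 84.8 and 76.1 CPM in medium. In WT clones 1, 2 and 3 it had 58.4, 45.5 and 59.7 CPM under LPS/IFN-γ, against 68.1, 65.9 and 82.4 CPM in medium. Parp2 fell less than Parp1, by 0.54 ± 0.13 in KO clones (adjusted p = 0.00399) and by 0.40 ± 0.13 in WT clones (adjusted p = 0.0216, and 0.0581 without WT clone 3); the difference between the 2 genes was not tested.

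The sirtuins, NAD-dependent deacylases, divided. Sirt1, a mostly nuclear deacetylase of histones, p53 and NF-κB p65 (ENSMUSG00000020063, chr10:63319005-63381704, minus strand), had 43.2, 40.4 and 32.7 CPM in KO clones 1A, 1B and 2 under LPS/IFN-γ, against 64.8, 58.9 and 52.1 CPM in medium. WT clones 1, 2 and 3 had 49.0, 32.9 and 57.5 CPM under LPS/IFN-γ, against 60.1, 49.1 and 68.9 CPM in medium. Each clone was lower when stimulated, at 0.628 to 0.686 of its medium level in KO and 0.669 to 0.835 in WT clones, but WT clones differed among themselves. Sirt1 fell by 0.60 ± 0.20 on the log2 scale in KO clones (SE; edgeR adjusted p = 0.0271), a call lost without any 1 KO clone or with 1A and 1B summed (0.0979 to 0.106). In WT clones it was -0.35 ± 0.20 (adjusted p = 0.17), and it passed at -0.37 with the clone as a block (adjusted p = 0.00615) and at -0.71 under library totals alone (adjusted p = 0.0152). Sirt2, the mostly cytoplasmic tubulin deacetylase (ENSMUSG00000015149, chr7:28766735-28788661, plus strand), had 40.9, 43.3 and 49.2 CPM in KO clones 1A, 1B and 2 under LPS/IFN-γ, against 21.5, 27.4 and 30.4 CPM in medium. Levels in WT clones 1, 2 and 3 were 49.5, 44.2 and 41.1 CPM under LPS/IFN-γ, against 27.9, 32.4 and 26.1 CPM in medium. Stimulated and medium libraries did not overlap, and the log2 fold change was 0.75 ± 0.15 in KO clones (adjusted p = 0.00134) and 0.64 ± 0.15 in WT clones (adjusted p = 0.00422). Under library totals alone the WT value was 0.29 with an adjusted p of 0.1.

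Upstream windows were read to see what the genes that moved together share in sequence. RefSeq (GRCm38.p6) gave 10 windows for 8 of the members, each 250 bases before to 50 after a transcription start. Bst1 and Nadk2 had no window and were not read. The E-box CACGTG, bound by basic helix-loop-helix factors, was present in 4 of the 10 windows, against 7.15% of all 32817 windows; it reads the same on both strands. It stood upstream of Parp1, Parp2 and Sirt1, which fell in KO clones, and of Nadk, which rose. Nmnat3 and Nadsyn1, which also fell, had no E-box in their windows. Only 1 of the 2 Nadk windows held it. The NF-κB consensus was found in the Sirt2 window and in no other, against 8.46% of all windows. The GAS motif TTCNNNGAA, the ISRE core GAAANNGAA and the E2F letters TTTGGCGC, TTTCCCGC and TTTGGCGG, on either strand, were in none of the 10, against 8.29, 8.55 and 2.10% of all windows. These matches describe letters and show no binding. Shown are the 250 bases before the Parp1 start (chr1:180568641-180568890, plus strand) and stretches of 30 bases around the other matches. They run 5′ to 3′ on the gene's strand with the match in capitals. The 30 bases around the Parp1 match (chr1:180568830-180568859) overlap no annotated exon. The rest of the Parp1 bases were not checked for exons. The Parp2 stretch overlaps exons of Rpph1 and Ccnb1ip1, the Sirt2 stretch an exon of Nfkbib, all on the other strand, and the Nadk stretch an exon of Nadk.
Parp1: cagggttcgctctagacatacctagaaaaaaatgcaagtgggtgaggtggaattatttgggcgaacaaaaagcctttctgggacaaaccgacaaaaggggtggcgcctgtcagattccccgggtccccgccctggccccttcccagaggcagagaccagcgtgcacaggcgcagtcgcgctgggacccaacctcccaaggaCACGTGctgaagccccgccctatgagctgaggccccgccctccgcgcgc
Parp2, chr14:50807725-50807754, plus strand: acacgcactcagCACGTGgccccgctgatg
Sirt1, chr10:63339133-63339162, minus strand: gcggcgcccggcCACGTGacccggcgtgtt
Sirt1, chr10:63339061-63339090, minus strand: ggaggggcgggtCACGTGacggggtttaaa
Nadk, chr4:155563763-155563792, plus strand: cgccgctctcccCACGTGccctgcagcgca
Sirt2, chr7:28766502-28766531, plus strand: tatcGGGAATTCCCcaacacgccccctcat

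Set against each other per length of exon, the members changed places between conditions. In KO clones under LPS/IFN-γ the level was highest for Nadk, at 137 ± 13.5 CPM per kb (SD, n = 3), ahead of Parp1 (27.2 ± 5.06), Bst1 (21.2 ± 16.4), Parp2 (14.9 ± 0.70), Sirt2 (8.84 ± 0.85) and Sirt1 (7.27 ± 1.02). The SD of Bst1 reached across Parp1 and Parp2, and those of Sirt2 and Sirt1 met. In KO clones in medium Parp1 led at 80.2 ± 5.34 CPM per kb, ahead of Nadk (66.6 ± 3.59), Parp2 (21.6 ± 1.54), Nadk2 (11.1 ± 2.71) and Sirt1 (11 ± 1.19), of which Nadk2 and Sirt1 did not differ beyond their spread. Nmnat3 was lowest in KO clones, at 0.68 ± 0.15 CPM per kb when stimulated and 1.95 ± 0.14 in medium. In WT clones in medium Nmnat3 and Nadsyn1, at 2.36 ± 0.33 and 2.39 ± 0.10 CPM per kb, did not differ beyond their spread. The leading member was the same in WT clones, with Nadk at 150 ± 13.3 CPM per kb when stimulated, ahead of Bst1 (54.4 ± 31.6) and Parp1 (35.2 ± 5.11), and Parp1 at 95.6 ± 13.9 in medium. Nampt stood at 67.2 ± 4.12 CPM per kb in KO and 178 ± 23.1 in WT clones under LPS/IFN-γ, so that stimulated Nadk was above it in KO clones, while their SDs touched in WT clones. No test was run between genes.

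**Figure D3:**
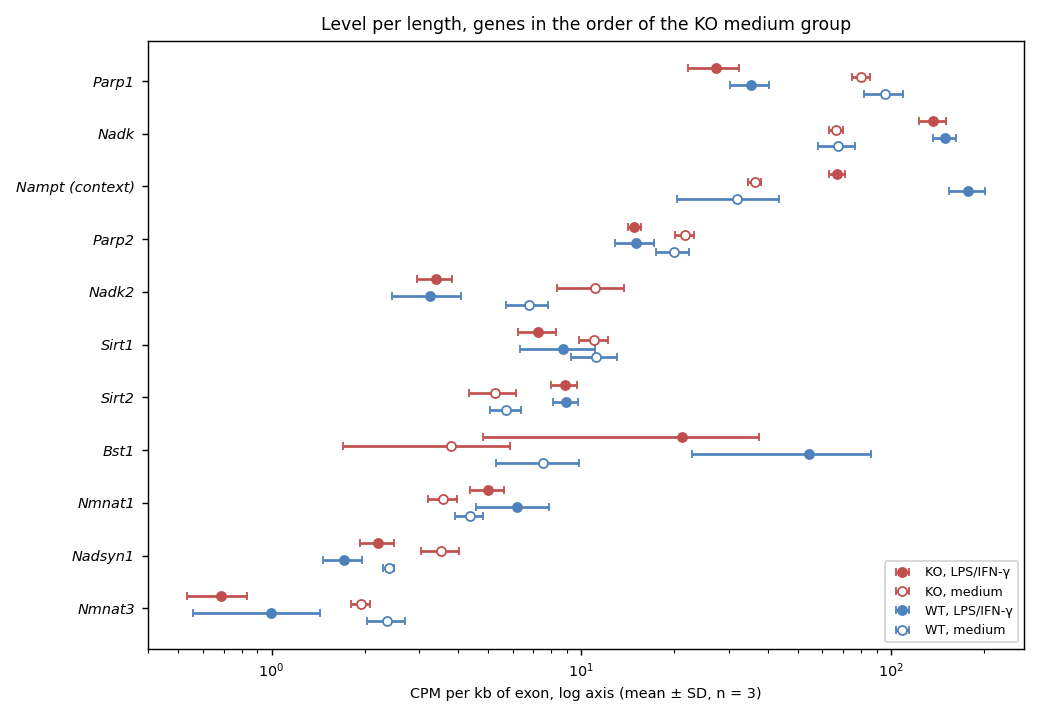
Level of each member and Nampt in CPM per kb of exon on a log axis, mean and SD of 3 clones, with KO clones above WT clones and filled points for LPS/IFN-γ. Among the members Nadk is highest under LPS/IFN-γ and Parp1 in medium in both genotypes, and Nmnat3 and Nadsyn1 are at the low end.

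Between genotypes under LPS/IFN-γ, KO against WT, none of the 10 members passed the test, where 4.64% of all genes did (1.13% higher and 3.51% lower). At an unadjusted p below 0.05 there were 2, where 21.2% of all genes were, and DESeq2 also called 0. Those were Bst1, with a log2 fold change of -1.36 ± 0.59 (SE; 95% interval -2.66 to -0.06, edgeR unadjusted p = 0.0425, adjusted p = 0.218), and Parp1, with -0.37 ± 0.16 (-0.73 to -0.02, unadjusted p = 0.0409, adjusted p = 0.213). Without KO clone 2 the Bst1 value was -2.21 (adjusted p = 0.0544), and without WT clone 2 it was -0.80 (0.512). Parp1 was the 1 member whose KO and WT libraries did not overlap there, as for 24% of all genes. Nmnat3 was at -0.55 ± 0.31 (adjusted p = 0.347), and without WT clone 3, its lowest stimulated WT library, at -0.86 (adjusted p = 0.0417). Nadsyn1 was at 0.36 ± 0.17 (-0.02 to 0.75, adjusted p = 0.259). For Nadk the interval of the difference was -0.40 to 0.14, for Parp2 -0.30 to 0.26 and for Sirt2 -0.33 to 0.31, the narrowest of the set. Nampt, for comparison, was at -1.40 on this scale.

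In medium, KO against WT, 0 of the 10 members passed, where 1.21% of all genes did (0.352% higher and 0.858% lower), and DESeq2 also called 0. At an unadjusted p below 0.05, where 14.1% of all genes were, there were 2, both higher in KO clones and without overlap between KO and WT libraries. Nadk2 had a log2 fold change of 0.71 ± 0.22 (SE; 95% interval 0.23 to 1.19, edgeR unadjusted p = 0.00799, adjusted p = 0.161). Nadsyn1 had 0.56 ± 0.17 (0.19 to 0.93, unadjusted p = 0.00671, adjusted p = 0.149). The Nadk2 value was 0.58 to 0.90 when 1 clone was left out in turn. Parp1, at -0.25 ± 0.16 (adjusted p = 0.536), was the third of 3 members without overlap, as for 20.9% of all genes. The remaining 7 had overlapping libraries, with Bst1 at -1.0 ± 0.61 (-2.35 to 0.35, adjusted p = 0.523) the farthest from 0. Nampt was at 0.19 in medium.

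**Figure D4:**
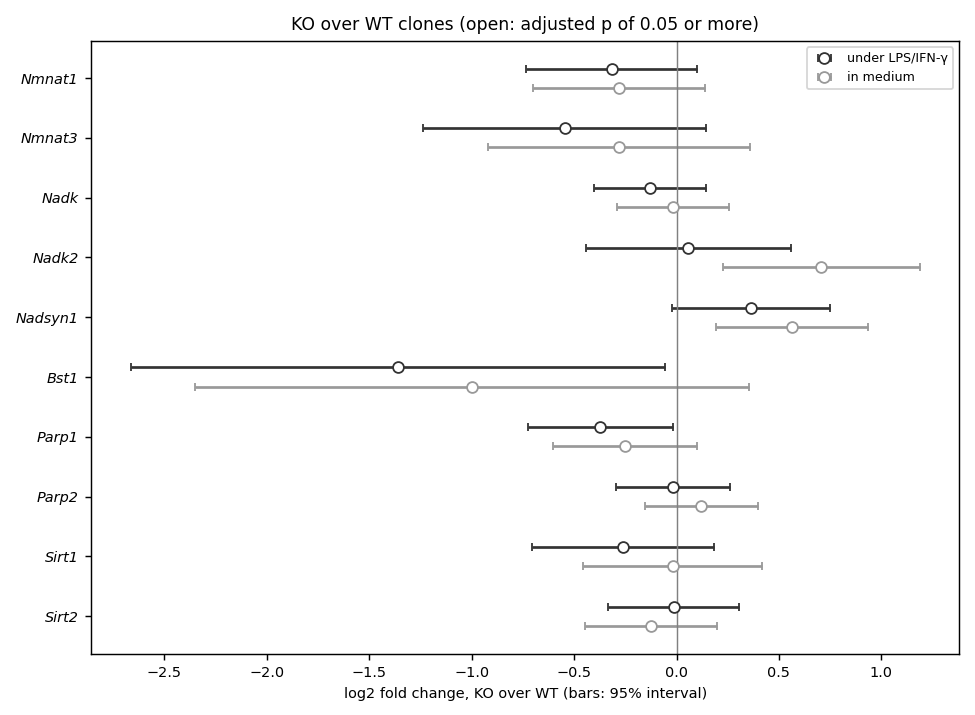
Log2 fold change of KO over WT clones for each member, under LPS/IFN-γ above and in medium below, with 95% intervals; no member passed the test at an adjusted p below 0.05. The intervals of Nadk2 and Nadsyn1 lie above 0 in medium, and those of Bst1 and Parp1 lie below 0 under LPS/IFN-γ.

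The difference of responses, KO minus WT, passed for 0 of the 10 members, as for 0% of all genes. None had an unadjusted p below 0.05, where 5% of all genes (611) did. DESeq2 and the fit with the clone as a block also called no member. In 9 of the 10 the value was below 0, Sirt2 being the exception at 0.11 ± 0.21 (SE; 95% interval -0.34 to 0.56). The median of the members was -0.17, against -0.01 over all genes. Nmnat1, Bst1 and Parp1 changed sign in some alternative fits, and the members share the same libraries, so their signs are not independent. The intervals were -0.50 to 0.27 for Nadk, -0.62 to 0.38 for Parp1, -0.53 to 0.25 for Parp2 and -2.22 to 1.5 for Bst1. Over the members the values ran between -0.65 (Nadk2) and 0.11 (Sirt2), and the Nampt value was -1.59, which its choice already fixed as low.

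Of 14 other genes of NAD synthesis besides Nampt, 4 were in the table and tested. Kmo, the kynurenine hydroxylase of the route from tryptophan, rose by a log2 fold change of 2.81 ± 0.41 in KO clones (SE; edgeR adjusted p = 0.000194) and 2.29 ± 0.36 in WT clones (adjusted p = 0.000474). It rests on 17 to 27 counts per stimulated and 2 to 12 per medium library. Afmid, the kynurenine formamidase, was lower at -1.42 ± 0.32 and -1.0 ± 0.31 in KO and WT clones (adjusted p = 0.00304 and 0.0222), but shares 46.6% of its exon length with Gm20708 and, for a small part, the antisense gene Tk1, and is uncertain; its WT call was lost without WT clone 1 (0.0968). Naprt, which starts the nicotinic acid route, was at 0.46 to 1.33 CPM and Nmrk1, a nicotinamide riboside kinase, at 3.13 to 7.0 CPM, and neither passed. Of 14 genes of NAD(P) handling, precursor clearance and transport, 8 were tested, and 1 rose and 3 fell in each genotype. The share of all genes that passed was 54.3% in KO and 47.4% in WT clones. Library totals alone gave 1 higher and 6 lower in KO clones and 1 higher and 4 lower in WT clones. The share of all genes under that scaling is not given. Pnp2, a purine nucleoside phosphorylase, had 4.10 ± 0.30 in KO and 3.51 ± 0.29 in WT clones (adjusted p = 2.37e-06 and 6.51e-06), with reads that its close copy Pnp may share. Nudt12, an NADH pyrophosphatase, fell by 1.30 ± 0.33 in KO and 1.27 ± 0.32 in WT clones (0.00615 and 0.00771; 0.0505 and 0.0541 in KO clones without KO 1A or 1B). Slc25a51, the mitochondrial NAD carrier, fell by 0.47 ± 0.10 and 0.64 ± 0.10 (0.00281 and 0.000495).

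Of the 7 other sirtuins and NAD glycohydrolases 6 were tested, with 0 higher and 3 lower in KO clones and 0 higher and 2 lower in WT clones. Of all genes, 54.3% passed in KO and 47.4% in WT clones. Under library totals alone 5 and 4 were lower, and with KO 1A and 1B summed 1 and 1. The shares of all genes in those fits are not given. Sirt3, the main mitochondrial deacetylase, fell by 0.88 ± 0.21 in KO clones (SE; edgeR adjusted p = 0.00422, and 0.0626 without KO clone 1A) and 1.14 ± 0.21 in WT clones (adjusted p = 0.00117). Sarm1, an NAD hydrolase best known from axons, was at or under 1.65 CPM in every library and passed as lower in both, at -2.41 ± 0.73 and -1.97 ± 0.63 (0.0157 and 0.0234). That call was lost without any 1 KO clone in KO clones and without WT clone 1 or 2 in WT clones, and in both with KO 1A and 1B summed (0.0505 to 0.154). Cd38, the glycohydrolase related to Bst1, was removed by the filter on low counts, at 0 to 12 counts stimulated and 0 to 1 in medium. With no filter, or with KO 1A and 1B summed, it was tested and was the 1 gene of the list that passed as higher in each genotype.

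The ADP-ribosyltransferases other than Parp1 and Parp2 rose where they passed, save 1 in each genotype under library totals alone. All 6 known as interferon-inducible rose in both genotypes, with median log2 fold changes of 3.25 in KO and 3.12 in WT clones; that list bears the treatment in its name. Parp14, a mono-ADP-ribosyltransferase that modulates STAT signalling, had 5.39 ± 0.53 in KO and 4.84 ± 0.52 in WT clones (SE; edgeR adjusted p = 2.18e-05 and 5.01e-05), and Zc3hav1, an antiviral RNA-binding member without catalytic activity, had 1.39 ± 0.11 and 1.55 ± 0.11 (2.83e-06 and 1.71e-06). Of 8 others, 4 rose in KO and 3 in WT clones and 0 fell, where 54.3 and 47.4% of all genes passed. Parp3, which acts at double-strand breaks, had 4.11 ± 0.33 in KO and 3.67 ± 0.32 in WT clones (4.45e-06 and 1.05e-05), and Tiparp, a target of the aryl hydrocarbon receptor, had 1.74 ± 0.26 and 2.01 ± 0.26 (0.000236 and 0.000128). Under library totals alone 3 of these 8 rose and 1 fell in each genotype, with the share of all genes under that scaling not given. In the main edgeR fit no gene of these or the following lists passed between KO and WT clones in either condition or in the difference of responses. Without WT clone 3, Parp12 passed as higher in KO clones under LPS/IFN-γ (log2 fold change 0.56, edgeR adjusted p = 0.0416). DESeq2 called Chd1l, of the repair list below, higher in KO clones in medium (0.32, adjusted p = 0.0284).

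**Figure D5:**
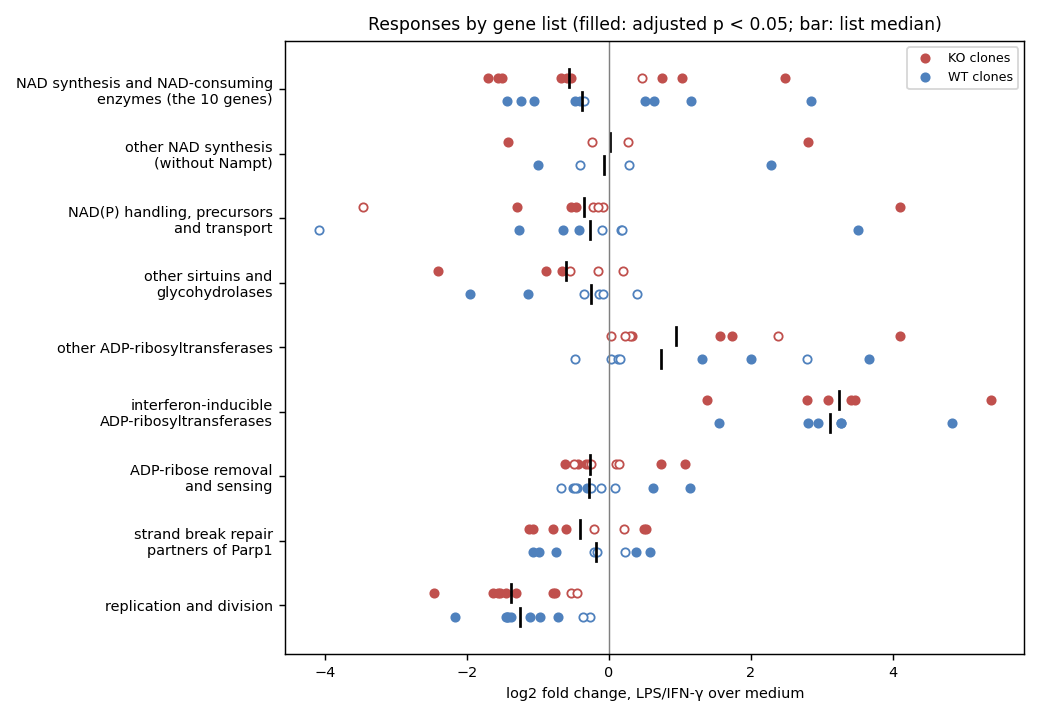
Log2 fold change of LPS/IFN-γ over medium for the genes of each list, KO clones above WT clones, with bars at list medians; filled points passed the test at an adjusted p below 0.05. The interferon-inducible ADP-ribosyltransferases lie highest (medians 3.25 and 3.12) and the replication genes lowest (medians -1.39 and -1.25).

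Of 12 symbols listed for ADP-ribose removal and sensing 10 were tested, with 2 higher and 3 lower in each genotype. That share was near the 54.3 and 47.4% of all genes. Library totals alone gave 2 higher and 6 lower in KO and 1 higher and 7 lower in WT clones. The share of all genes under that scaling is not given. Adprm, an ADP-ribose and CDP-alcohol pyrophosphatase, rose by 1.07 ± 0.19 in KO and 1.15 ± 0.19 in WT clones (SE; edgeR adjusted p = 0.000731 and 0.000585). Oard1, which removes ADP-ribose from glutamate, fell by 0.61 ± 0.14 and 0.51 ± 0.14 (0.00409 and 0.0127), with 0.0536 in KO clones without KO clone 2. Parg, the main poly(ADP-ribose) glycohydrolase, was at 0.15 ± 0.08 and 0.09 ± 0.08 (adjusted p = 0.121 and 0.368). Of 8 partners of Parp1 in single-strand break repair, 2 rose and 4 fell in KO clones and 2 rose and 3 fell in WT clones. Among all genes the same 54.3 and 47.4% passed in the main fit, and the share under library totals alone is not given. Xrcc1, the scaffold recruited by poly(ADP-ribose), fell by 1.13 ± 0.18 and 1.08 ± 0.18 (0.000381 and 0.000671). Aptx and Polb, which clean and fill the gap, were the 2 that rose, with 0.52 ± 0.12 and 0.49 ± 0.10 in KO and 0.58 ± 0.12 and 0.39 ± 0.10 in WT clones, and neither passed under library totals alone, where 0 of the 8 rose and 5 fell in each genotype; Aptx also missed in KO clones without KO 1A (adjusted p = 0.0622).

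Replication and division genes fell beside Parp1 and Parp2. All 10 were tested, and 8 fell and 0 rose in each genotype, with median log2 fold changes of -1.39 in KO and -1.25 in WT clones. Of all genes, 27.6 and 23.6% passed as lower. The Mcm3 and Top2a calls in KO clones were lost without any 1 KO clone and with 1A and 1B summed (edgeR adjusted p = 0.062 to 0.161). In WT clones both were lost without WT clone 3 (0.0579 and 0.139). Top2a in WT clones was also lost without KO 1A or 1B and with the pair summed (0.0536 to 0.0577). Their summed level was 1744 to 2379 CPM in KO and 1283 to 2765 CPM in WT clones under LPS/IFN-γ, against 4767 to 5150 CPM in KO and 3773 to 5240 CPM in WT clones in medium. Mcm6, a subunit of the replicative helicase, fell by 2.46 ± 0.36 in KO (SE; edgeR adjusted p = 0.000258) and 2.17 ± 0.36 in WT clones (adjusted p = 0.000684). The part of this in the Parp1 and Parp2 values was not tested.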

How the data were processed

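The authors deposited 1 table of whole-number counts per Ensembl gene for all 12 libraries. The submitters' processing notes name the build mm10 (GRCm38) and, with no role or version, DESeq2; aligner, counter and strand use were not given in the sources. The genotype and treatment of each column came from the sample labels. GENCODE M21 (GRCm38) named 12305 of 12483 IDs and gave exon lengths; no member shared more than 2.95% of its exon length with another gene. CPM were scaled by TMM factors (0.8558 to 1.172). edgeR 4.0.16 (R 4.3.3) fitted 1 mean per group over all 12 libraries with robust quasi-likelihood tests, 8 residual degrees of freedom, on 12231 genes kept by filterByExpr (252 left out). P-values were Benjamini-Hochberg adjusted over all genes tested, with a threshold of 0.05 and no fold minimum. The main fit, the fit with the clone as a block and DESeq2 were tested on simulated data that held no clone effect. The other alternatives were not simulated. The coefficient of variation between clones was 23.6%, and 11.7% with the clone as a block.

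Each clone gave 1 library per condition, so clones pair the conditions. Deviations of a clone's 2 libraries correlated at 0.287 to 0.70. In each case this was above any other clone of the same genotype, for KO 1B only narrowly (0.287 against 0.274). Clones of the other genotype were not compared. The main fit has no block, and the block was an alternative. Other alternatives were RLE factors, library totals alone, DESeq2 1.42.0, no filter, KO 1A and 1B summed, and leaving out each clone. Members are all named. Of each list, genes called between genotypes and up to 2 of the highest and 2 of the lowest called responses could be named. Naprt, Nmrk1, Cd38, Sirt4 to Sirt7, Nnt, Nudt9, Nudt13, Parg, Adgre1, Fcgr1, Lyz2, Parp12, Chd1l, Mcm3 and Top2a were named after their values were seen. The members and lists were chosen with earlier results of these data known.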

Additional observations from a re-analysis of the deposited data

How the results depend on the processing

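The number of members that passed for LPS/IFN-γ against medium was 9 in KO and 9 in WT clones, and 10 and 10 with the clone as a replicate block, which gave 0 for the difference of responses. The main fit called 54.3 and 47.4% of all genes in these responses. The shares under the alternatives are not given here, so a changed count may not be particular to the members. Leaving out 1 clone gave 7 to 10 members in KO clones and 6 to 7 in WT clones, 0 for KO against WT in medium, 0 to 1 for KO against WT under LPS/IFN-γ (1 without WT clone 3, Nmnat3) and 0 for the difference of responses. Summing KO 1A and 1B gave 8 and 7, RLE factors 10 and 9, DESeq2 10 and 9, and no filter 9 and 9. Library totals alone moved the median of all genes to -0.39 in KO and -0.37 in WT clones and gave 9 and 8. All responses of members kept their sign in all 12 alternatives. The block changed the call of Nmnat1 in KO and of Sirt1 in WT clones and no other member. Of all genes, KO against WT in medium called 1.21%, and 5.20% with DESeq2, 0.13% with KO 1A and 1B summed and 0.113 to 3.40% without 1 clone; under LPS/IFN-γ 4.64%, and 10.1, 0.591 and 0.389 to 7.89%. The difference of responses called 0% of all genes, 0.269% with DESeq2 and 0.327% with the block. Nmnat3 and Nadsyn1, counted 27 to 172 and 47 to 167 times per library, have the least depth.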

Other observations

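Other genes of the lists whose products are mitochondrial, named after their values were seen, are given as values for LPS/IFN-γ against medium; they did not all move one way. Nnt, the transhydrogenase of the inner membrane, fell by 0.54 ± 0.13 on the log2 scale in KO and 0.43 ± 0.13 in WT clones (SE; edgeR adjusted p = 0.00489 and 0.0194; 0.0505 without KO 1B, 0.0583 without WT 2), with 47.5% of its exon length shared with a second annotated copy of the gene. Sirt5, a desuccinylase, fell by 0.65 ± 0.20 in KO clones (adjusted p = 0.0159, lost without KO 1A or 1B at 0.142 and 0.0554 and with the pair summed at 0.0768) and was at -0.36 ± 0.19 in WT clones (adjusted p = 0.152). Sirt4 did not pass, at -0.55 ± 0.22 in KO (adjusted p = 0.0506) and -0.14 ± 0.21 in WT clones (adjusted p = 0.622). Nudt9, an ADP-ribose pyrophosphatase, did not pass, at 0.09 ± 0.12 in KO and -0.11 ± 0.12 in WT clones (adjusted p = 0.513 and 0.447). Nudt13 did not pass, at -0.16 ± 0.15 in KO and 0.18 ± 0.15 in WT clones (adjusted p = 0.402 and 0.359). The nuclear sirtuins Sirt6 and Sirt7 did not pass either, at 0.20 ± 0.18 and -0.15 ± 0.13 in KO and 0.39 ± 0.18 and -0.09 ± 0.13 in WT clones.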
